A study of Mus musculus with 54 samples.

Results

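Livers in which the clock protein BMAL1 had been put back were compared here with livers that lack it, at ZT0, the time of lights on. The comparison used 6 of the 54 libraries of the series, 3 from Liver-RE mice and 3 from KO mice, each from 1 mouse taken at ZT0. Of the 18079 genes measured, 11746 had a mean of at least 0.5 FPKM (reads scaled by transcript length and sequencing depth) over those 6 libraries and were tested, and 6333 fell below that.

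Liver-RE mice carry the BMAL1-stop-FL design, in which BMAL1 is missing from the body and is restored in the liver. KO mice lack BMAL1 in all tissues, and WT mice are wild type. All groups were female C57BL/6J mice aged 8 to 12 weeks, fed normal chow freely under a cycle of 12 h light and 12 h dark, and no agent was given. The sources used here do not give which promoter or Cre line restored BMAL1, in which liver cells, or whether KO mice also carry the stop allele. Each genotype has 3 mice at each of ZT0, 4, 8, 12, 16 and 20. WT levels are given as values only.

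BMAL1, encoded by Arntl, pairs with CLOCK or NPAS2 and switches on genes that carry E-box sequences, among them those for the PER and CRY proteins, which then block it. A further loop runs through the receptors REV-ERB-alpha and REV-ERB-beta (Nr1d1 and Nr1d2), which repress Arntl, Npas2 and Cry1, and the ROR receptors, which activate the same sites. In the liver, the loop also drives the D-box factors DBP, TEF and HLF and their rival NFIL3, and many metabolic genes follow it or follow feeding.

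Sequencing depth, estimated from the size of the smallest steps in the values, was about 26.4 to 31.0 M reads in the Liver-RE libraries and 24.9 to 27.4 M reads in the KO libraries at ZT0. Replicate 3 of Liver-RE stood apart in some clock genes, Arntl among them. Arntl read 1.91 FPKM there, inside the range of 1.34 to 2.11 in Liver-RE at ZT4, while replicates 1 and 2 read 10.6 and 7.75, inside the range of 4.68 to 10.6 in Liver-RE at ZT20. Npas2 and Cry1 of replicate 3 also lay inside the ZT4 range. Dbp (15.4, against 35.9 to 36.4), Clock (9.09, against 6.21 to 6.80), Per3, Nr1d2, Nfil3 and Usp2 lay outside it. Outside the ZT20 range lay replicate 2 in Dbp, Per3, Nr1d2, Nfil3 and Clock, and replicate 1 in Npas2, Clock and Usp2. Replicate 1 stood apart in Per3 (0.734, against 3.59 and 2.84) and Nr1d2 (8.09, against 15.2 and 17.1). Over all genes tested, replicate 3 correlated at 0.972 and 0.976 with the other Liver-RE libraries. The KO libraries correlated with each other at 0.959 to 0.973. Replicate 2 of KO had the highest summed FPKM, 413945, against 274353 and 304446 in the other KO libraries and 318559 to 347140 in Liver-RE. Hepatocyte markers were abundant throughout, and all 16 markers in the table passed the filter. Their summed level was 44250 to 52640 FPKM in Liver-RE, 29180 to 42520 in KO and 50470 to 64130 in WT. Much of that sum was Alb, with 26913 to 34274 FPKM in Liver-RE, 13844 to 16013 in KO and 30400 to 40401 in WT. The median log2 difference of the 16 markers, Liver-RE minus KO, was -0.06, with 7 above 0. Over all genes tested that median was -0.10. In whole tissue such as this, fewer cells of a type and less RNA per cell cannot be told apart.

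Arntl itself did not mark the genotype. It read 10.6, 7.75 and 1.91 FPKM in Liver-RE livers, against 6.26, 8.33 and 6.50 FPKM in KO livers and 12.0, 11.6 and 11.3 FPKM in WT livers. The value covers the whole gene (chromosome 7, 113178471 to 113314126, GRCm38). It does not show which parts of the gene the reads came from, so the KO label is not checked by it. The Liver-RE and KO values overlapped, and the log2 difference was -0.26 ± 0.32 (SE, n = 3 mice each; adjusted p = 0.677 in limma over all genes tested). Without replicate 3 of Liver-RE it was 0.33 ± 0.25.

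Restored liver BMAL1 went with a limited set of changes at ZT0. The higher side held genes of fat synthesis, female-type liver enzymes and the REV-ERB receptors. Of the genes named, Hectd2os and Lpl differed most on the lower side, which also held Cry1. A gene was called when its limma p, adjusted over all 11746 genes, was under 0.05, with the difference taken on log2(FPKM + 1). On this scale 402 genes passed, 3.42% of those tested. The 195 genes higher in Liver-RE were 1.66% of the genes tested, and the 207 lower ones 1.76%. Changes of at least 2-fold were more frequent on the higher side, with 99 genes against 46 on the lower side. Of the 402 genes, 380 had values that did not overlap between the groups, while over all genes tested 4.84% lay wholly higher and 10.3% wholly lower in Liver-RE. The median difference of all genes tested was -0.10.

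The number of calls depended on single libraries and on scaling. Without replicate 3 of Liver-RE, 311 genes were called higher and 606 lower, 2.65% and 5.16% of those tested. Leaving out replicate 1 or 2 of Liver-RE gave 105 and 97 higher and 75 and 81 lower. Leaving out KO replicate 1, 2 or 3 gave 191, 147 and 182 higher and 583, 88 and 159 lower. With quantile normalization 63.9% of the called genes were higher in Liver-RE, against 48.5% as reported.

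Among clock genes, the REV-ERB receptors were higher in Liver-RE than in KO, and Cry1 and Npas2 were lower. Arntl, which these receptors repress as they do Cry1 and Npas2, did not pass (-0.26, adjusted p = 0.677 in limma). A link among these changes was not tested. The clock lists held 29 genes, of which 26 were tested and 3 (Arntl2, Ciart and Bhlhe41) were below the filter. Of the 26, 3 were called higher and 4 lower, beside 1.66% and 1.76% of all genes tested. Ppp1r3c, 1 of the 4, is a glycogen gene held in the list of clock modifiers, and it is counted in the glycogen list too. Arntl, Clock, Per1, Per2, Per3, Cry2, Rora, Tef, Hlf, Nfil3 and 9 modifiers did not pass.

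Nr1d1 had 6.01, 8.38 and 5.61 FPKM in Liver-RE livers, against 0.208, 0.168 and 0.186 FPKM in KO livers and 0.687, 0.160 and 1.84 FPKM in WT livers. It was thus low in every KO liver, and every Liver-RE liver also exceeded every WT liver at this hour. The log2 difference was 2.67 ± 0.44 (SE, adjusted p = 0.000391). Nr1d2, its close relative, had 8.09, 15.2 and 17.1 FPKM in Liver-RE livers, against 1.34, 1.91 and 2.81 FPKM in KO livers and 4.13, 2.47 and 4.10 FPKM in WT livers. The groups did not overlap, and the difference was 2.23 ± 0.33 (adjusted p = 0.000106). Nr1d1 lies on chromosome 11 (98767932 to 98775377) and Nr1d2 on chromosome 14 (18204056 to 18239106).

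Cry1, the repressor of CLOCK and BMAL1, had 5.18, 4.19 and 3.46 FPKM in Liver-RE livers, against 16.0, 21.1 and 24.2 FPKM in KO livers and 9.98, 10.1 and 7.47 FPKM in WT livers. All Liver-RE values were below all WT values, and all KO values were above them. The difference was -2.02 ± 0.25 (adjusted p = 1.04e-05). Npas2, a partner of BMAL1, had 2.03, 1.26 and 0.504 FPKM in Liver-RE livers, against 3.97, 2.85 and 4.70 FPKM in KO livers. Its difference was -1.13 ± 0.22 (adjusted p = 0.00231), and WT livers read 1.84, 2.38 and 2.69 FPKM. The calls of Nr1d1, Nr1d2, Cry1 and Npas2 held without any 1 of the 6 libraries. In a fit of the 6 ZT0 libraries alone, Npas2, Dbp and Ppp1r3c did not pass, and with WT libraries in the fit Dbp and Ppp1r3c did not.

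Dbp, the D-box activator, spread widely within Liver-RE. It had 1.61, 5.83 and 15.4 FPKM in Liver-RE livers, against 0.962, 0.555 and 0.936 FPKM in KO livers and 0.764, 0.413 and 0.388 FPKM in WT livers. The groups did not overlap and the difference was 1.88 ± 0.47 (adjusted p = 0.0220), but it dropped to 1.22 (adjusted p = 0.0989) without replicate 3 of Liver-RE. Its call was also lost without replicate 2 of Liver-RE (adjusted p = 0.0829) or KO replicate 2 (adjusted p = 0.0883). Ppp1r3c, which targets a phosphatase to glycogen, had 52.6, 31.4 and 18.3 FPKM in Liver-RE livers, against 59.3, 114.8 and 67.2 FPKM in KO livers. Its difference of -1.28 ± 0.35 (adjusted p = 0.0411) lost the call without replicate 2 or 3 of Liver-RE (adjusted p = 0.120 and 0.131) or KO replicate 2 or 3 (adjusted p = 0.204 and 0.0589).

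Several clock genes lay near the threshold. Per3, a period gene, had 0.734, 3.59 and 2.84 FPKM in Liver-RE livers, against 0.720, 0.373 and 0.806 FPKM in KO livers, and its difference of 0.95 ± 0.29 did not pass (adjusted p = 0.0637). Without replicate 1 of Liver-RE, which alone lay within the KO range, the difference was 1.37 (adjusted p = 0.00504). Clock had 9.61, 9.24 and 9.09 FPKM in Liver-RE livers, against 10.3, 15.8 and 14.6 FPKM in KO livers, and its difference of -0.48 ± 0.14 had an adjusted p of 0.0542, or 0.00761 without KO replicate 1. Per2 had 2.52, 2.64 and 6.47 FPKM in Liver-RE livers, against 5.11, 6.65 and 9.32 FPKM in KO livers. Its difference of -0.78 ± 0.32 (adjusted p = 0.177) became -1.13 (adjusted p = 0.0348) without replicate 3 of Liver-RE. Nfil3 had 9.01, 6.85 and 3.04 FPKM in Liver-RE livers, against 8.18, 9.18 and 12.0 FPKM in KO livers, and the difference of -0.64 ± 0.24 did not pass (adjusted p = 0.143).

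The remaining clock genes were close in the groups or too variable to separate. Cry2 differed by -0.46 ± 0.15 (adjusted p = 0.0876), Rora by -0.36 ± 0.14 (adjusted p = 0.159) and Per1 by -0.30 ± 0.37 (adjusted p = 0.683). Tef, with 6.69, 13.4 and 24.0 FPKM in Liver-RE livers against 12.4, 10.6 and 14.9 FPKM in KO livers, differed by 0.06 ± 0.26, and Hlf by 0.12 ± 0.20. Among the modifiers, Nampt, an NAD salvage enzyme, differed by -0.05 ± 0.23, Bhlhe40 by 0.02 ± 0.38, Usp2 by -0.09 ± 0.34 and Sirt1 by -0.28 ± 0.11 (adjusted p = 0.156). The kinases Csnk1d and Csnk1e and the ubiquitin ligase parts Fbxl21 and Btrc lay between -0.20 and -0.03.

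**Figure D1:**
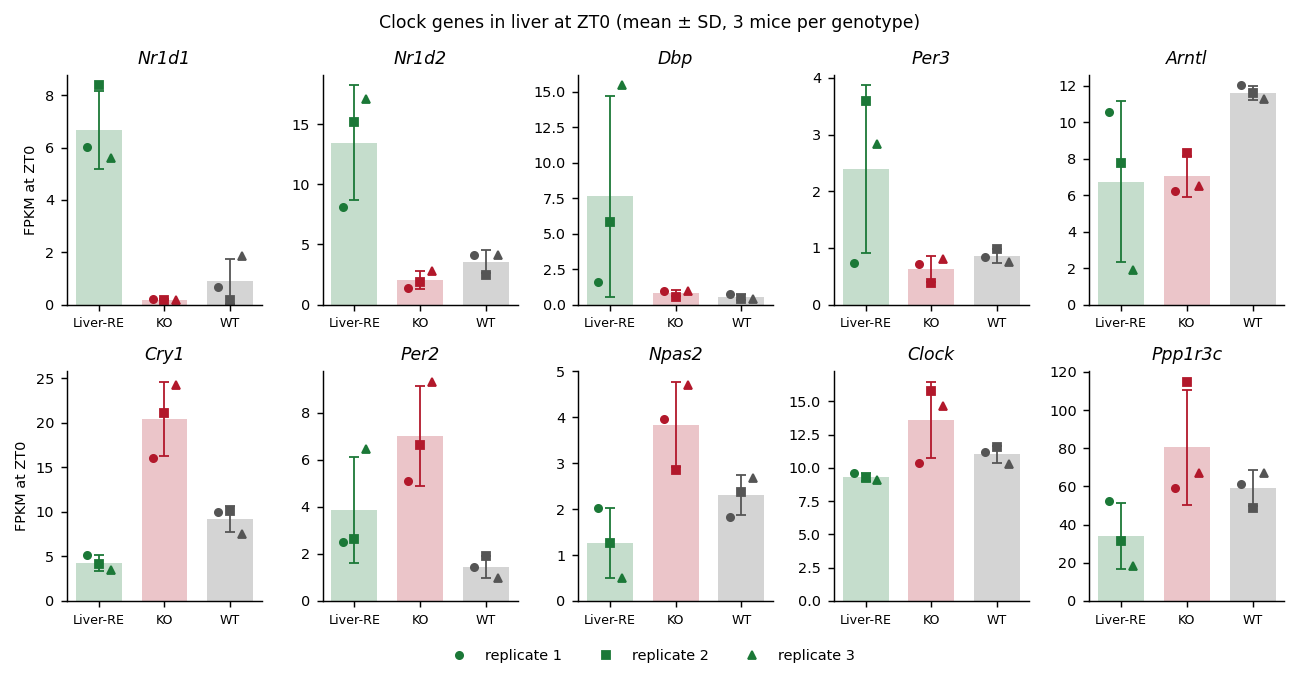
FPKM at ZT0 of 10 clock genes in Liver-RE, KO and WT livers. Bars are means, error bars the SD of 3 mice, and each marker shape is 1 replicate number. Nr1d1, Nr1d2 and Dbp sit higher in Liver-RE than in KO, Cry1, Npas2 and Ppp1r3c sit lower, and replicate 3 of Liver-RE has the lowest Arntl (1.91) and the highest Dbp (15.4).

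Promoter windows of the called clock genes were read for the E-box CACGTG, the sequence that BMAL1 and its partners bind, since restoring BMAL1 bears on it. The windows run from 250 bases before to 50 bases after the RefSeq transcription start (GRCm38.p6), and 6 of the 7 called clock genes have one. Only Cry1 and Ppp1r3c hold CACGTG in this window. Both are printed 5′ to 3′ on the gene's own strand with the E-box in capitals. The Cry1 window is chr10:85185005-85185304 on the minus strand, with the E-box starting 60 bases before the start (first base at -60), and the Ppp1r3c window is chr19:36736555-36736854 on the minus strand, with it at -104.
Cry1: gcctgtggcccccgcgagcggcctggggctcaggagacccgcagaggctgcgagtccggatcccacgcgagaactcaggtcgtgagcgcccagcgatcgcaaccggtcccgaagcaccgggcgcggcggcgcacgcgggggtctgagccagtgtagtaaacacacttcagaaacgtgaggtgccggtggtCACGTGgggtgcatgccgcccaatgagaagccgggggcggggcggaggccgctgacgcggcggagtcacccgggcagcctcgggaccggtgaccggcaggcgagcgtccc
Ppp1r3c: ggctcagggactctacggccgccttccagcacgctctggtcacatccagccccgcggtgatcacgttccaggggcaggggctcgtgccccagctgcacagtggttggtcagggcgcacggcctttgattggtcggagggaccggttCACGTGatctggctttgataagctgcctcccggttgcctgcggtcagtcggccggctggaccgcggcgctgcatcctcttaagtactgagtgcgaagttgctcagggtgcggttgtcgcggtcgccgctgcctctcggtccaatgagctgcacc
Both genes with this E-box were lower in Liver-RE than in KO at ZT0. CACGTG, which reads the same on both strands, occurred in 12.1% of the 9090 tested genes with a window, in 12.7% of the 150 such genes called higher and in 12.8% of the 156 called lower. Among all 32851 windows the share was 7.15%. The ROR and REV-ERB core letters TAGGTCA and TGGGTCA, on either strand, occurred in none of the 6 windows and in 6.41% of tested genes with a window. A match or its lack describes these letters in this window only.

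Genes of fatty acid and triglyceride synthesis formed the most affected list. All 24 listed genes were tested, all 24 had a positive difference, and 15 were called higher and none lower, beside 1.66% of all genes tested called higher. The median difference was 1.05, against -0.10 over all genes tested. The call count was 13 to 17 when any 1 of the 6 libraries was left out. Adipocyte markers, with 7 of 10 in the table and 5 tested, had no call. Their summed level was 559.5 to 686.9 FPKM in Liver-RE, 319.5 to 405.9 FPKM in KO and 627.4 to 919.0 FPKM in WT. Most of that sum was 1 gene, Car3, with 543.2 to 667.9 FPKM in Liver-RE, 305.8 to 387.9 in KO and 617.4 to 904.8 in WT. The 5 markers tested had a median difference of 0.23, with 3 above 0. Adipoq, the defining one, was below the filter, and the part of fat cells in the differences was not tested.

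Thrsp, a small protein that promotes fat synthesis, had 1226, 1180 and 394.8 FPKM in Liver-RE livers, against 36.2, 67.4 and 75.1 FPKM in KO livers and 64.1, 482.8 and 296.6 FPKM in WT livers. The difference was 3.84 ± 0.71 (adjusted p = 0.00140). Elovl6, which lengthens palmitate, had 244.4, 222.0 and 120.4 FPKM in Liver-RE livers, against 10.3, 27.6 and 24.7 FPKM in KO livers and 15.8, 148.3 and 77.2 FPKM in WT livers, a difference of 3.21 ± 0.52 (adjusted p = 0.000384). In both, the lowest Liver-RE liver was several times above the highest KO liver, and WT replicate 1 stood within the KO range. Scd1, the desaturase that makes oleate, had 8717, 9624 and 3551 FPKM in Liver-RE livers, against 1070, 517.2 and 1305 FPKM in KO livers and 2448, 4080 and 3608 FPKM in WT livers. The lowest Liver-RE liver stood well above the highest KO liver, and the difference was 2.89 ± 0.40 (adjusted p = 4.64e-05).

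Fasn, the fatty acid synthase, had 656.5, 583.4 and 314.4 FPKM in Liver-RE livers, against 51.9, 61.5 and 110.4 FPKM in KO livers and 75.2, 350.1 and 252.2 FPKM in WT livers. The difference was 2.79 ± 0.51 (adjusted p = 0.00122). Acly, which supplies cytosolic acetyl-CoA, differed by 2.33 ± 0.45 (adjusted p = 0.00245), and the carboxylases Acaca and Acacb, which make malonyl-CoA, by 1.52 ± 0.28 (adjusted p = 0.00124) and 2.31 ± 0.36 (adjusted p = 0.000169). The enzymes from citrate to oleate thus moved in one direction. Gpam, which starts glycerolipid assembly, had 349.7, 315.6 and 66.6 FPKM in Liver-RE livers, against 37.2, 35.5 and 30.6 FPKM in KO livers, a difference of 2.47 ± 0.47 (adjusted p = 0.00207). Pnpla3, a lipid droplet protein, had 10.6, 19.2 and 4.88 FPKM in Liver-RE livers, against 0.585, 0.363 and 0.507 FPKM in KO livers, a difference of 2.91 ± 0.51 (adjusted p = 0.000743). Fads2 (1.30 ± 0.21), Fads1 (0.90 ± 0.18), Dgat2 (0.86 ± 0.18), Elovl5 (0.84 ± 0.17) and Acsl5 (0.82 ± 0.19) were called as well. The calls of Elovl5 and Acsl5 were lost without replicate 1 of Liver-RE (adjusted p = 0.0665 and 0.133), and that of Acsl5 also without replicate 2 of Liver-RE (adjusted p = 0.0625).

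The transcription factors of this programme did not pass. Srebf1, which encodes SREBP1, had 60.9, 69.9 and 84.7 FPKM in Liver-RE livers, against 32.5, 33.9 and 38.5 FPKM in KO livers and 49.1, 73.4 and 63.4 FPKM in WT livers. The groups did not overlap, but the difference of 1.01 ± 0.43 had an adjusted p of 0.200 in the fit of all 36 Liver-RE and KO libraries. Mlxipl, which encodes the sugar sensor ChREBP, differed by 0.89 ± 0.28 (adjusted p = 0.0810), and Pparg by 0.10. Of the remaining listed genes, Lpin2, Lpin1, Scd2, Slc25a1, Agpat2 and Dgat1 lay between 0.16 and 1.09 and did not pass.

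Fatty acid synthesis uses NADPH, and 10 textbook genes of its supply were therefore read as a group after the first results had been seen. All 10 were tested, and all had positive differences with a median of 0.61, against -0.10 over all genes tested. Of these, 4 were called higher, beside 1.66% of all genes tested. Their count is a description, since the group was chosen with results known, and Me1 is also 1 of the 15 called fat synthesis genes. Me1, malic enzyme, had 175.9, 212.0 and 88.8 FPKM in Liver-RE livers, against 11.2, 30.1 and 37.6 FPKM in KO livers and 21.4, 62.5 and 59.1 FPKM in WT livers, a difference of 2.62 ± 0.37 (adjusted p = 6.66e-05). G6pdx, which opens the pentose phosphate pathway, had 25.2, 27.1 and 5.55 FPKM in Liver-RE livers, against 2.58, 2.95 and 2.05 FPKM in KO livers and 4.39, 17.8 and 16.8 FPKM in WT livers. Its difference was 2.27 ± 0.32 (adjusted p = 5.51e-05), and replicate 3 of Liver-RE lay far below the other two. Pgd differed by 1.27 ± 0.23 (adjusted p = 0.000972) and Tkt by 0.96 ± 0.16 (adjusted p = 0.000556). Idh1 (0.59), Rpia (0.63) and Taldo1 (0.48) did not pass, and H6pd, Pgls and Rpe lay between 0.01 and 0.08.

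**Figure D2:**
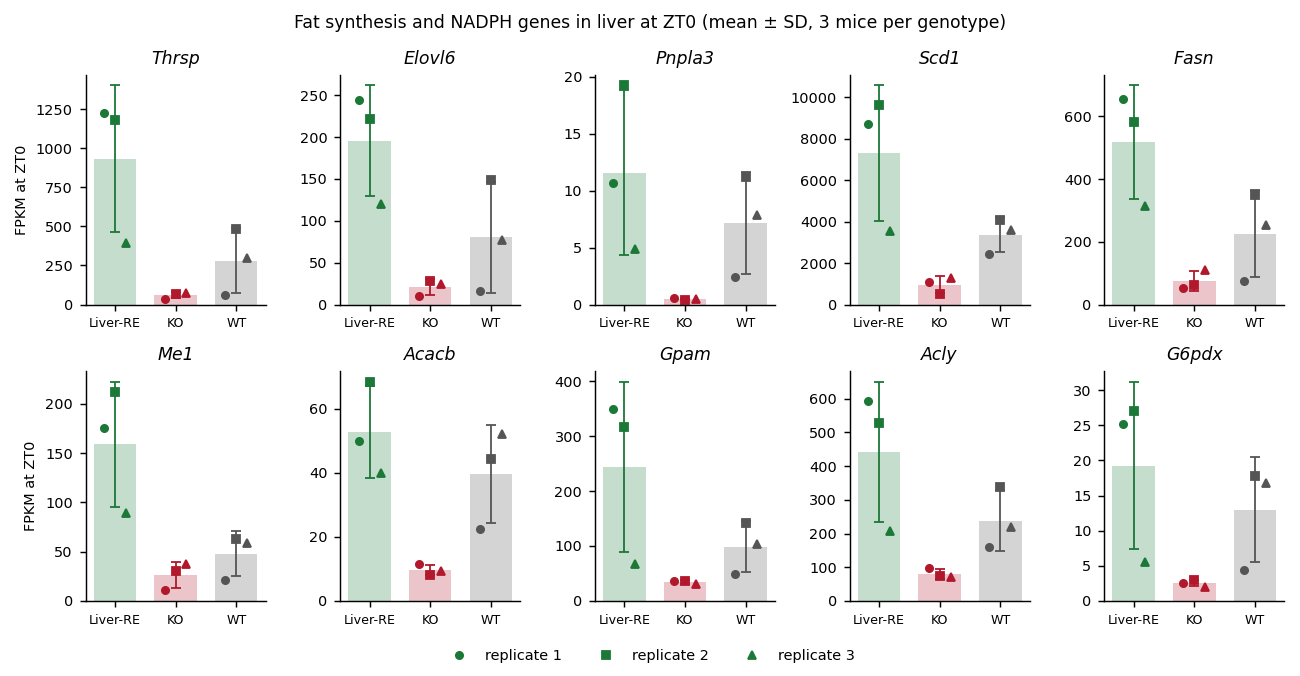
FPKM at ZT0 of 10 genes of fat synthesis and NADPH supply in Liver-RE, KO and WT livers. Bars are means, error bars the SD of 3 mice, and each marker shape is 1 replicate number. All Liver-RE livers exceed all KO livers for each gene, and replicate 3 of Liver-RE is the lowest of its group, as for G6pdx with 5.55 FPKM.

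Whether the genotype difference at ZT0 differed from that at the other 5 times was tested directly, as the difference at ZT0 minus the mean of the differences at ZT4 to ZT20. With all libraries no gene passed (0% of those tested), and the smallest adjusted p in limma was 0.0726. An unadjusted p under 0.05 was reached by 1372 genes, 5.81% of those tested more positive at ZT0 and 5.87% more negative. Rescaling without the 20 highest genes called 5 genes, Tmem135, Cs, Tkt, Cyb5r3 and Rmdn2, and each of the other settings with all libraries called none.

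Replicate 3 of Liver-RE decided this count. Without it, 206 genes were called, of which 132 were more positive at ZT0 (1.12% of those tested) and 74 more negative (0.63%), while leaving out each of the other 5 ZT0 libraries called 0 or 1. Of the 24 fatty acid and triglyceride genes, 9 were then called more positive at ZT0: Scd1, Fasn, Acly, Acaca, Acacb, Me1, Gpam, Elovl5 and Acsl5. For Scd1 the excess of the ZT0 difference over the mean of the other times was 1.92 with all libraries and 2.38 ± 0.44 without that library (adjusted p = 0.00439), and for Fasn it was 2.15 and 2.48 ± 0.60 (adjusted p = 0.0310). For G6pdx it was 1.69 and 2.37 ± 0.23 (adjusted p = 6.78e-07). Arntl was also called more positive at ZT0 without it, with 1.15 ± 0.27 (adjusted p = 0.0282), against 0.55 ± 0.35 with all libraries. Thrsp and Elovl6 did not pass in either case. Replicate 3 had been set apart by its low Arntl, and it was also the lowest of its group for Scd1, Fasn and G6pdx. Leaving it out raises these means by construction. The calls without it are therefore no separate support for an effect particular to ZT0.

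Fat synthesis genes ranked high at ZT0 in the fit of all libraries too, without an adjusted call. The excess was above 0 for 23 of 24 genes, and 16 had an unadjusted p under 0.05 in that direction, beside 5.81% of all genes tested. Their ZT0 difference was the largest of the 6 times for 18 of 24 genes, as it was for 2176 of the 11746 genes tested. The list's median difference was 1.05 at ZT0, 0.53 at ZT4, 0.98 at ZT8, 0.33 at ZT12, 0.14 at ZT16 and 0.20 at ZT20. ZT8 thus came close to ZT0: Thrsp differed by 4.17 and Elovl6 by 3.41 at ZT8, both above their ZT0 values, while Fasn differed by 2.55 and Scd1 by 1.97.

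Of 26 cholesterol synthesis genes 1 was called higher at ZT0, beside 1.66% of all genes tested. It was Sc5d, a late enzyme of the pathway, with 393.6, 378.7 and 248.1 FPKM in Liver-RE livers, against 201.3, 167.6 and 135.4 FPKM in KO livers. Its difference was 1.00 ± 0.28 (adjusted p = 0.0391), and the call was lost without replicate 1 or 2 of Liver-RE or KO replicate 2 or 3 (adjusted p up to 0.201). The count was 4 without replicate 3 of Liver-RE, 2 without KO replicate 1 and 0 without each of the other 4 libraries. The list's median difference was 0.43 at ZT0, 0.15 at ZT8 and between -0.67 and -0.31 at the other times. The excess at ZT0 was above 0 in all 26 genes, and 14 had an unadjusted p under 0.05. Fdps and Acat2 passed the adjusted threshold for it without replicate 3 of Liver-RE.

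**Figure D3:**
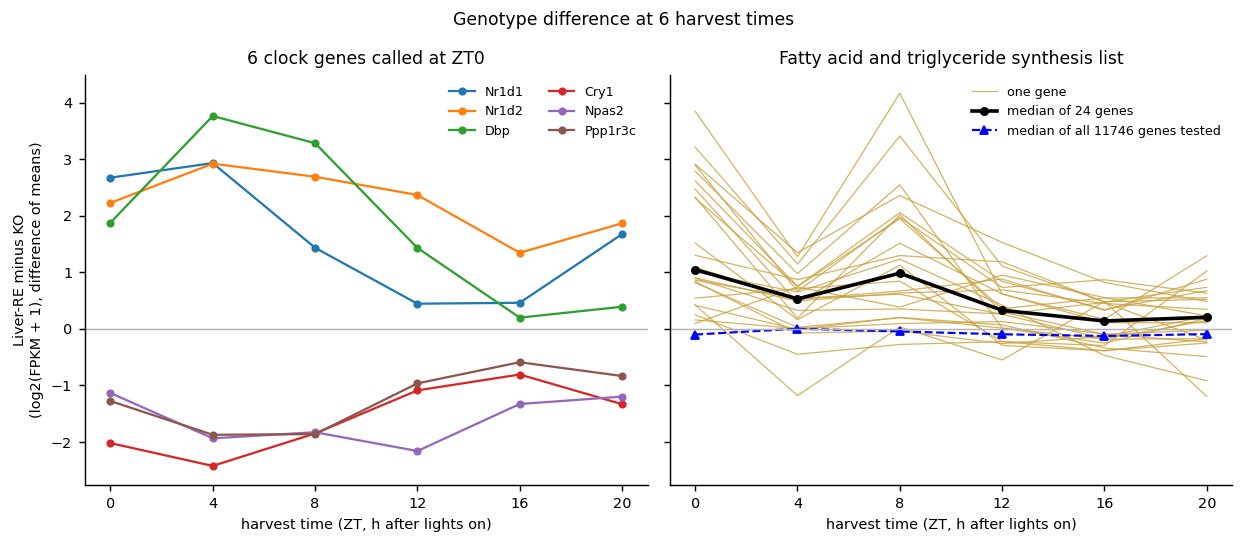
Liver-RE minus KO difference of mean log2(FPKM + 1) at each of 6 harvest times. Left, 6 of the clock genes called at ZT0, of which Dbp runs from 1.88 at ZT0 to 3.76 at ZT4. Right, the 24 fatty acid and triglyceride synthesis genes as thin lines, their median in black (1.05 at ZT0 and 0.98 at ZT8) and the median of all genes tested in blue.

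The differences of clock genes at the other times are given as a description. Nr1d1 differed by 2.67 at ZT0, 2.93 at ZT4, 1.43 at ZT8, 0.45 at ZT12, 0.46 at ZT16 and 1.67 at ZT20, with a ZT0 excess of 1.28 (unadjusted p = 0.012). Cry1 differed by -2.02 at ZT0 and -2.42 at ZT4, and by -0.81 at its smallest, at ZT16. Dbp differed by 1.88 at ZT0, 3.76 at ZT4 and 0.20 at ZT16. Nr1d2 had no excess at ZT0, with -0.01. Arntl in Liver-RE averaged 6.74 ± 4.42 FPKM at ZT0, 1.65 ± 0.41 at ZT4, 1.40 ± 0.52 at ZT8, 5.40 ± 2.42 at ZT12, 9.46 ± 1.60 at ZT16 and 7.91 ± 3.00 at ZT20, while KO means stayed between 7.03 and 8.69 (SD, n = 3 each). ZT0 was the hour with the widest SD of Arntl in Liver-RE.

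**Figure D4:**
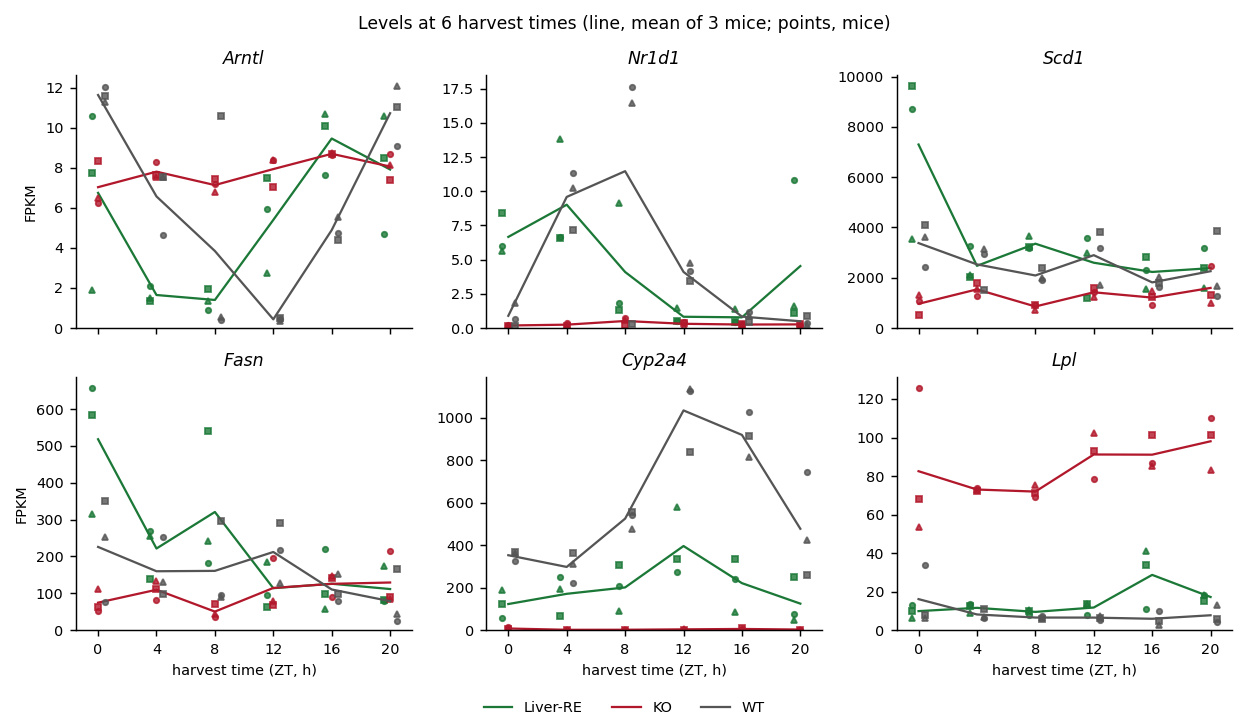
FPKM of 6 genes at the 6 harvest times in Liver-RE, KO and WT livers. Lines join means of 3 mice, and points are single mice. Scd1 and Fasn have their highest Liver-RE means at ZT0 (7297 and 518.1), Nr1d1 stays near 0 in KO, Cyp2a4 stays low in KO, and Lpl is lower in Liver-RE than in KO at every time.

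Enzymes that are more abundant in female than in male mouse liver were also called higher more than lower, among animals that were all female. Of 30 listed genes 28 were tested, with 5 higher, 1 lower and 22 that did not pass, beside 1.66% and 1.76% of all genes tested. The median difference was 0.57, against -0.10 over all genes tested, and 0.26 without replicate 3 of Liver-RE. The number called higher was 3 without replicate 2 of Liver-RE. Cyp17a1, a steroid hydroxylase, showed the largest difference of all genes named: 92.4, 61.8 and 43.5 FPKM in Liver-RE livers, against 1.98, 1.01 and 3.61 FPKM in KO livers and 41.4, 28.1 and 32.7 FPKM in WT livers. The difference was 4.40 ± 0.70 (adjusted p = 0.000296).

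Cyp2a4, a steroid hydroxylase, had 56.6, 123.0 and 189.5 FPKM in Liver-RE livers, against 12.5, 6.11 and 4.56 FPKM in KO livers and 325.2, 369.1 and 365.1 FPKM in WT livers. Liver-RE lay between KO and WT without overlap, and the difference from KO was 3.77 ± 0.61 (adjusted p = 0.000384). Its near-identical neighbour Cyp2a5, a coumarin hydroxylase, had 156.9, 170.3 and 200.5 FPKM in Liver-RE livers, against 33.3, 22.0 and 42.3 FPKM in KO livers and 103.0, 101.3 and 99.6 FPKM in WT livers. Its difference of 2.44 ± 0.59 (adjusted p = 0.0170) lost the call without replicate 1 or 2 of Liver-RE or KO replicate 2 (adjusted p up to 0.0849). The sources used here do not give how reads that match both genes were assigned, so the split between them is uncertain, as it is for Cyp2b13 and Sult3a1, which also have close relatives. Cyp2b13 had 18.1, 49.3 and 80.7 FPKM in Liver-RE livers, against 5.22, 2.73 and 3.88 FPKM in KO livers, a difference of 3.15 ± 0.73 (adjusted p = 0.0124, and 0.0621 without replicate 2 of Liver-RE and 0.0587 without KO replicate 2). Sult3a1, a sulfotransferase, had 6.36, 21.0 and 28.6 FPKM in Liver-RE livers, against 0.797, 2.22 and 0.891 FPKM in KO livers, a difference of 2.93 ± 0.67 (adjusted p = 0.0111, and 0.0652 without replicate 2 of Liver-RE).

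Ntrk2, a neurotrophin receptor, was the listed gene that fell, with 0.537, 0.888 and 0.584 FPKM in Liver-RE livers, against 3.64, 1.75 and 2.10 FPKM in KO livers. Its difference of -1.03 ± 0.25 (adjusted p = 0.0185) lost the call without replicate 1 of Liver-RE (adjusted p = 0.0911) or KO replicate 1 (adjusted p = 0.0673). The female-biased genes did not set ZT0 apart. Their median difference was smaller at ZT0 (0.57) than at ZT12 (1.48), and the excess at ZT0 was above 0 for 7 of 28. Of 24 male-biased genes tested, 1 was called, Susd4, with 1.72, 1.15 and 1.19 FPKM in Liver-RE livers, against 0.314, 0.148 and 0.174 FPKM in KO livers (0.95 ± 0.20, adjusted p = 0.00532). The male-biased list had a median of 0.02 at ZT0 and between -0.88 and -0.20 at the other times. Its ZT0 excess was above 0 for 20 of 24 genes, 4 of them with an unadjusted p under 0.05, and ZT0 gave the largest of the 6 differences for 15.

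Promoter windows of called genes were also read for the D-box letters TTATGTAA and TTATGCAA on either strand, which DBP and its relatives bind, because Dbp was higher. They occurred in 11 of the 150 genes with a window called higher (7.33%), in 2 of the 156 called lower (1.28%), in 1.60% of tested genes with a window and in 1.66% of all windows. Among the 11, Cyp2a4 and Cyp2a5 have nearly the same window, and Ces1b, Ces1e and Ces1g belong to the same gene family. The matches are thus not independent, and the difference between these shares was not tested. Cyp2a4 and Cyp2a5 are shown because they are large changes with the match at nearly the same place, and Alb because its level is the highest of the genes with a match. The genes shown were chosen after these counts were seen. The windows are chr7:26306942-26307241 for Cyp2a4, chr7:26835089-26835388 for Cyp2a5 and chr5:90460620-90460919 for Alb, all on the plus strand of GRCm38.p6 and read from RefSeq, with D-box letters in capitals, starting at -70 in Cyp2a4 and -71 in Cyp2a5.
Cyp2a4: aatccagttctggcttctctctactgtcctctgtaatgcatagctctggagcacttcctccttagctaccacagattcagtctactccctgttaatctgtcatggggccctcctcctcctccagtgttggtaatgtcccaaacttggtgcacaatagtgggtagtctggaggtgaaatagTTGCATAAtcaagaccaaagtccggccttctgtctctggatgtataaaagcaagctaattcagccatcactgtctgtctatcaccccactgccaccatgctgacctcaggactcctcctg
Cyp2a5: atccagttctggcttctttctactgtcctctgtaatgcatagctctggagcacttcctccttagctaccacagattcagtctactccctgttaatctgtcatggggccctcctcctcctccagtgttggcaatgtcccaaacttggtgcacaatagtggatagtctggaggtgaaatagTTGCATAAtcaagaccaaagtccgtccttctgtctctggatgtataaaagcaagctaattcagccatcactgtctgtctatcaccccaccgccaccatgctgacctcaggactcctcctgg
Alb: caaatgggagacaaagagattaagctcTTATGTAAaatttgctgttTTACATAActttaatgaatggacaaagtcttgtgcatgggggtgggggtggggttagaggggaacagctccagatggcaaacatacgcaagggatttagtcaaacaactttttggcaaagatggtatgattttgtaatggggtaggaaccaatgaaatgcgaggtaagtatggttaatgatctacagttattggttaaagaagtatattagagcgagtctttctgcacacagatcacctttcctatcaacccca
The Cyp2a4 and Cyp2a5 windows carry TTGCATAA, the reverse complement of TTATGCAA, and Alb carries TTATGTAA at -223 and, nearer the start, its reverse complement TTACATAA. Alb, serum albumin, had 34274, 27221 and 26913 FPKM in Liver-RE livers, against 13844, 16013 and 14971 FPKM in KO livers and 34799, 40401 and 30400 FPKM in WT livers. The difference was 0.97 ± 0.26 (adjusted p = 0.0319), and the call was lost in 5 of the 6 fits that left out 1 library, with differences of 0.86 to 1.03.

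Enzymes that handle foreign compounds had calls in both directions. Of 36 xenobiotic genes tested, 4 were called higher and 1 lower, beside 1.66% and 1.76% of all genes tested. The higher ones were Ces1d and Cyp2a4, Cyp2a5 and Cyp2b13, given above. Ces1d, a carboxylesterase, had 380.7, 435.8 and 377.2 FPKM in Liver-RE livers, against 106.2, 166.3 and 163.5 FPKM in KO livers and 427.0, 503.0 and 514.3 FPKM in WT livers, a difference of 1.47 ± 0.22 (adjusted p = 0.000147). Cyp2c55, a fatty acid hydroxylase, fell to 8.33, 9.46 and 3.79 FPKM in Liver-RE livers, against 68.1, 18 and 26.7 FPKM in KO livers and 4.46, 2.30 and 1.66 FPKM in WT livers. Its difference was -2.09 ± 0.40 (adjusted p = 0.00231). Cyp2d40, which no list held, had 65.6, 46.9 and 28.8 FPKM in Liver-RE livers, against 3.27, 9.14 and 9.12 FPKM in KO livers (2.59 ± 0.30, adjusted p = 4.72e-06).

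Further genes at the top included Mme, the peptidase neprilysin, with 10.9, 15.2 and 8.92 FPKM in Liver-RE livers, against 1.18, 0.911 and 0.942 FPKM in KO livers and 10.8, 16.0 and 18.8 FPKM in WT livers. Its difference of 2.63 ± 0.27 had one of the smallest adjusted p-values (7.93e-07), and it lay between 2.51 and 3.37 at every other time. Chrna4, a nicotinic receptor subunit, had 14.1, 13.1 and 1.98 FPKM in Liver-RE livers, against 0.928, 0.411 and 0.216 FPKM in KO livers (2.53 ± 0.53, adjusted p = 0.00556). That call was lost without replicate 1 or 2 of Liver-RE (adjusted p = 0.0665 and 0.0607).

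On the lower side the largest differences were those of Hectd2os and Lpl. Hectd2os, a long noncoding RNA (chromosome 19, 36619418 to 36689479), had 13, 13.7 and 10.2 FPKM in Liver-RE livers, against 79.9, 196.4 and 106.4 FPKM in KO livers and 12.5, 12.9 and 17.2 FPKM in WT livers. Liver-RE and WT overlapped, KO lay above both, and the difference from KO was -3.18 ± 0.33 (adjusted p = 7.93e-07). It lay between -4.84 and -3.08 at the other 5 times. Hectd2, whose locus this RNA is named for, also fell, by 1.06 ± 0.16 (adjusted p = 0.000106). The sources used here do not give whether the authors' counting used strand, so reads of overlapping genes cannot be told apart.

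Lpl, lipoprotein lipase, which frees fatty acids from circulating triglyceride, had 13.3, 9.84 and 6.47 FPKM in Liver-RE livers, against 125.5, 68.3 and 53.7 FPKM in KO livers and 34.1, 7.93 and 6.30 FPKM in WT livers. The difference was -2.90 ± 0.31 (adjusted p = 1.09e-06), and between -2.88 and -1.82 at the other times. It was the gene that fell among 31 tested for fatty acid oxidation and PPAR-alpha, where 1 rose, Fitm1, a lipid droplet protein, with 3.20, 6.43 and 6.61 FPKM in Liver-RE livers, against 0.656, 2.94 and 1.48 FPKM in KO livers. Its difference was 1.29 ± 0.35 (adjusted p = 0.0345, up to 0.147 in the 4 of 6 fits without 1 library that lost the call). The list's median was -0.09, close to that of all genes tested. Its 1 higher and 1 lower gene stand beside 1.66% and 1.76% of all genes tested. Fat synthesis and fatty acid oxidation genes therefore differed in their counts at ZT0, 15 of 24 against 1 of 31 called higher, and this contrast of lists was not tested.

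Defb1, a beta-defensin, had 2.41, 4.38 and 3.11 FPKM in Liver-RE livers, against 21.4, 29.9 and 23.9 FPKM in KO livers and 3.73, 4.49 and 2.80 FPKM in WT livers, a difference of -2.61 ± 0.35 (adjusted p = 4.07e-05). Loxl4, a lysyl oxidase relative, had 2.28, 1.07 and 0.621 FPKM in Liver-RE livers, against 15.1, 9.11 and 7.22 FPKM in KO livers and 6.75, 8.33 and 7.97 FPKM in WT livers (-2.31 ± 0.25, adjusted p = 1.09e-06). Defb1 in Liver-RE reached the WT range, and Loxl4 lay below WT. Ndrg1, a stress and hypoxia gene, had 9.61, 5.98 and 5.33 FPKM in Liver-RE livers, against 22.1, 44.4 and 31.5 FPKM in KO livers (-2.06 ± 0.24, adjusted p = 3.71e-06). Raet1d, a ligand of an immune receptor, had 5.49, 3.13 and 3.29 FPKM in Liver-RE livers, against 15, 18.3 and 29.0 FPKM in KO livers (-2.11 ± 0.45, adjusted p = 0.00585), and it has close relatives with which it may share reads. All of these held their calls without any 1 of the 6 libraries.

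Of the other lower genes, Cdkn1a, Aox3, Spon2, Csad and Spink1 kept their direction without any 1 library but lost their calls in some of those fits. Cdkn1a, the cell cycle inhibitor p21, had 2.09, 1.13 and 0.843 FPKM in Liver-RE livers, against 4.29, 10.1 and 7.76 FPKM in KO livers (-1.80 ± 0.39, adjusted p = 0.00763, and -1.57 with 0.0593 without KO replicate 2). Aox3, an aldehyde oxidase, had 34.7, 35.8 and 52.7 FPKM in Liver-RE livers, against 67.7, 202.1 and 102.6 FPKM in KO livers (-1.45 ± 0.30, adjusted p = 0.00502, and -1.03 with 0.0631 without KO replicate 2). Spon2 differed by -1.48 ± 0.32 (adjusted p = 0.00626, and -1.29 with 0.0531 without KO replicate 2). Csad, which makes hypotaurine for taurine synthesis, had 9.09, 33.2 and 21.9 FPKM in Liver-RE livers, against 43.9, 172.7 and 94.4 FPKM in KO livers (-2.19 ± 0.60, adjusted p = 0.0405). Spink1, a trypsin inhibitor, differed by -2.20 ± 0.62 (adjusted p = 0.0433). Over the 6 fits without 1 library the difference of Csad was -2.69 to -1.70 and that of Spink1 -2.60 to -1.73. The call of Csad was lost without replicate 1 of Liver-RE (adjusted p = 0.281) or KO replicate 2 or 3 (adjusted p = 0.201 and 0.0873), and that of Spink1 without replicate 2 or 3 of Liver-RE (adjusted p = 0.111 and 0.112) or KO replicate 2 or 3 (adjusted p = 0.164 and 0.0868).

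Of 28 glycogen and glucose genes tested, 4 were called higher and 1 lower, beside 1.66% and 1.76% of all genes tested. The lower one was Ppp1r3c, already counted among the clock modifiers. The list median was 0.21, against -0.10 over all genes tested, but 0.04 without KO replicate 1. The number called higher was 2 without replicate 1 or 2 of Liver-RE or KO replicate 1, and 6 without replicate 3 of Liver-RE or KO replicate 3. Pklr, the liver pyruvate kinase, had 199.5, 167.9 and 141.0 FPKM in Liver-RE livers, against 21.4, 57.2 and 71.0 FPKM in KO livers and 36.2, 144.0 and 110.5 FPKM in WT livers. Its difference of 1.89 ± 0.40 (adjusted p = 0.00547) held without any 1 library, as did that of Gpi1, glucose phosphate isomerase, at 1.04 ± 0.21 (adjusted p = 0.00354). Gbe1, the glycogen branching enzyme, differed by 0.89 ± 0.22 (adjusted p = 0.0179), with a drop to 0.54 (adjusted p = 0.0846) without KO replicate 1, and also lost its call without replicate 1 or 2 of Liver-RE (adjusted p = 0.130 and 0.0680). Slc2a2, the hepatic glucose transporter, had 157.7, 131.6 and 173.6 FPKM in Liver-RE livers, against 63.5, 83.3 and 127.9 FPKM in KO livers (0.80 ± 0.23, adjusted p = 0.0483, up to 0.170 in the 5 of 6 fits without 1 library that lost it). Pck1, which opens gluconeogenesis, had 118.3, 141.8 and 363.9 FPKM in Liver-RE livers, against 287.4, 456.3 and 807.4 FPKM in KO livers and did not pass (adjusted p = 0.275).

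Secreted acute phase proteins had calls in both directions, beside 1.66% of all genes tested called higher and 1.76% called lower. Of 20 genes tested, 2 were called higher (Orm1 at 1.64 and Saa4 at 0.88, lost in 4 and 3 of the fits without 1 library, with adjusted p up to 0.137 and 0.0973) and 4 lower. Hp, haptoglobin, had 491.4, 487.2 and 542.2 FPKM in Liver-RE livers, against 751.8, 1110 and 1227 FPKM in KO livers and 1021, 878.9 and 756.7 FPKM in WT livers, a difference of -0.99 ± 0.24 (adjusted p = 0.0159). Itih3 differed by -0.94 ± 0.19 (adjusted p = 0.00284), Cp, ceruloplasmin, by -0.87 ± 0.21 (adjusted p = 0.0174), and complement C3 by -0.80 ± 0.18 (adjusted p = 0.0116). The calls of Hp, Cp and C3 were lost without replicate 1 (adjusted p = 0.0699, 0.0714 and 0.139) or replicate 2 of Liver-RE (adjusted p = 0.0680, 0.0806 and 0.0711), and those of Hp and Cp also without KO replicate 2 (adjusted p = 0.0704 and 0.103). The number called lower was 1 without replicate 1 and 1 without replicate 2 of Liver-RE. Hp also lost its call without KO replicate 3 (adjusted p = 0.0749).

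Interferon-responsive genes had a median of -0.35 over 31 genes, against -0.10 over all genes tested, and 2 were called lower, beside 1.76% of all genes tested. Single libraries moved both: the median was -0.12 without KO replicate 1, where that of all genes tested was -0.16, and -0.57 without KO replicate 3. The number called lower was 0 without replicate 1 of Liver-RE, 1 without its replicate 2 or KO replicate 1 or 2, and 4 without KO replicate 3. Rsad2, an antiviral enzyme, had 1.47, 3.62 and 2.40 FPKM in Liver-RE livers, against 9.50, 7.79 and 3.02 FPKM in KO livers, and its groups overlapped (-1.09 ± 0.29, adjusted p = 0.0355). Mx2 differed by -0.49 ± 0.13 (adjusted p = 0.0373). Each was lost in 3 of the 6 fits that left out 1 library, with adjusted p up to 0.252 for Rsad2, without replicate 1 of Liver-RE, and 0.192 for Mx2, likewise without replicate 1 of Liver-RE. The ZT0 excess was below 0 with an unadjusted p under 0.05 in 15 of the 31 genes, beside 5.87% of all genes tested.

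**Figure D5:**
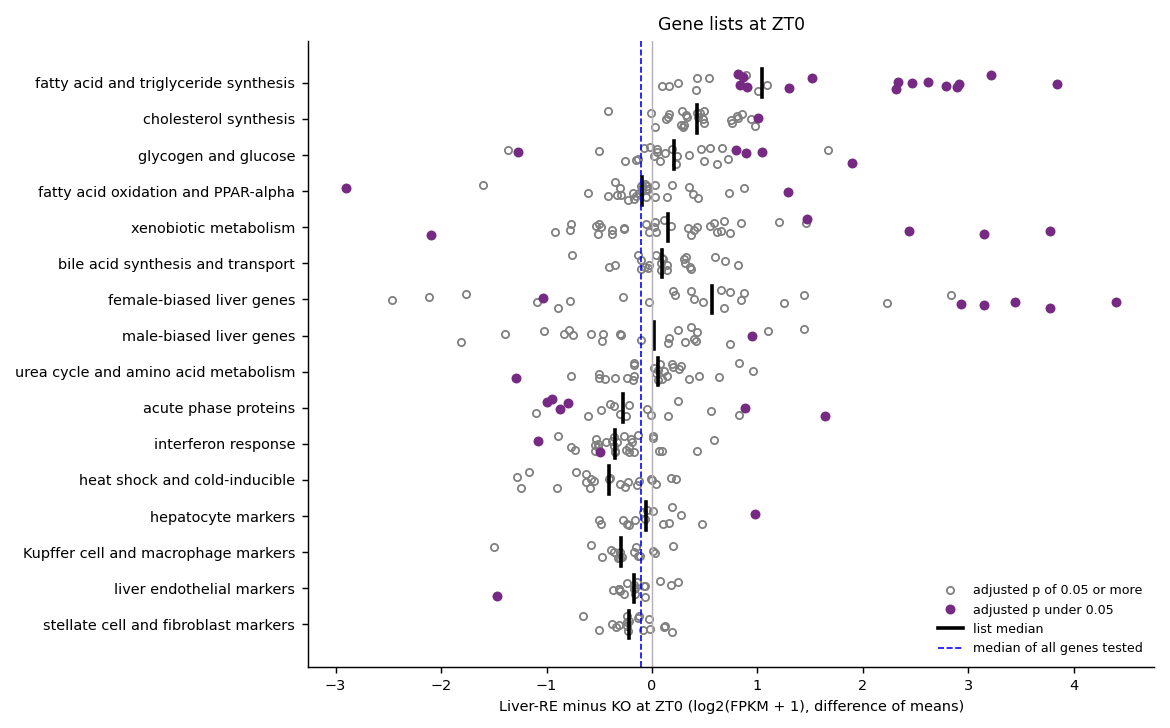
Liver-RE minus KO differences of mean log2(FPKM + 1) at ZT0, 1 point per gene, in 16 of the 34 gene lists. Filled points passed an adjusted p of 0.05, black bars are list medians and the dashed line is the median of all genes tested (-0.10). Fatty acid and triglyceride synthesis has the highest list median shown, 1.05, with 15 of 24 genes filled.

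Markers of other liver cells leaned to the lower side in Liver-RE, with few calls. The difference was above 0 for 3 of 16 Kupffer cell and macrophage, 3 of 18 stellate and fibroblast and 3 of 18 endothelial markers. The medians of these lists were -0.29, -0.22 and -0.17, against -0.10 over all genes tested. Without KO replicate 2 they were -0.12, -0.10 and 0.11, against -0.03. None of the Kupffer cell and macrophage markers and none of the stellate and fibroblast markers was called. Their summed levels were 277.8 to 431.3 and 175.8 to 200.7 FPKM in Liver-RE, against 326.9 to 545.4 and 196.7 to 291.6 FPKM in KO. Marco, a macrophage marker, had 1.09, 1.24 and 1.12 FPKM in Liver-RE livers, against 7.37, 3.98 and 4.38 FPKM in KO livers. Its groups did not overlap, but the difference of -1.50 ± 0.62 did not pass (adjusted p = 0.179 in limma). Of 18 endothelial markers 1 was called, Lyve1, beside 1.76% of all genes tested called lower. Lyve1, a marker of liver sinusoids, had 2.41, 3.46 and 1.96 FPKM in Liver-RE livers, against 13.5, 7.62 and 6.64 FPKM in KO livers (-1.47 ± 0.34, adjusted p = 0.0134). Its call was lost without replicate 1 of Liver-RE (adjusted p = 0.0612) or KO replicate 1 (adjusted p = 0.0514), and the summed endothelial markers were 188.5 to 244.9 FPKM in Liver-RE and 185.8 to 393.9 FPKM in KO.

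Of the bile duct markers, 1 was called. Sox9, which marks duct cells, had 0.516, 0.711 and 0.373 FPKM in Liver-RE livers, against 1.98, 2.74 and 2.14 FPKM in KO livers and 0.994, 1.06 and 1.09 FPKM in WT livers (-1.10 ± 0.15, adjusted p = 5.16e-05). Of the 8 listed markers 3 passed the filter, with a median difference of -1.10 and none above 0. The sum over all 8 was 10.5 to 18.5 FPKM in Liver-RE, 20.0 to 78.9 FPKM in KO and 14.1 to 22.1 FPKM in WT. The part of a different cell makeup in the differences above was not tested. Markers of lymphocytes, neutrophils, red cells and pancreatic acinar cells had no call among the 1, 2, 1 and 1 tested.

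Other lists held few called genes, beside 1.66% of all genes tested called higher and 1.76% called lower. Agxt, a peroxisomal aminotransferase, was the 1 called of 28 urea cycle and amino acid genes, with 94.2, 87.7 and 131.8 FPKM in Liver-RE livers, against 358.4, 230.2 and 197.0 FPKM in KO livers. Its difference was -1.29 ± 0.30 (adjusted p = 0.0149), and the call was lost in 3 of the 6 fits without 1 library (adjusted p up to 0.0848). Prlr, the prolactin receptor, was the 1 called of 17 growth hormone axis genes, with 10.1, 12.6 and 25.9 FPKM in Liver-RE livers, against 27.8, 29.6 and 23.2 FPKM in KO livers. Replicate 3 of Liver-RE overlapped the KO values, and the difference of -0.80 ± 0.22 (adjusted p = 0.0433) became -1.17 (adjusted p = 0.000475) without it. The call was lost without replicate 1 or 2 of Liver-RE or KO replicate 1 or 2 (adjusted p up to 0.351). Among 24 cell cycle genes, Gadd45a, a growth arrest gene, was higher (1.00 ± 0.29, adjusted p = 0.0493, up to 0.184 in the 5 fits that lost it), and Ccnd3 (-0.50 ± 0.12, adjusted p = 0.0197, up to 0.190 in the 3 fits that lost it) and Cdkn1a were lower. Cdkn1a was also the 1 called of 17 glucocorticoid-responsive genes, and Me1 the 1 called of 20 NRF2 and antioxidant genes. Lists for NAD metabolism, bile acids, heme, heat shock and the integrated stress response had no called gene with all libraries. The heat shock list, with a median of -0.40 over 22 genes, had 4 genes called lower without replicate 3 of Liver-RE (median -0.59) and 3 without KO replicate 1 (median -0.77). Without replicate 3 of Liver-RE the bile acid list had 1 gene called higher and 1 lower, and the heme list 1 higher. The bile acid list had 1 higher without KO replicate 3, and the integrated stress list 1 lower without KO replicate 1.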

How the data were processed

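The deposited table has 1 row for each gene and a column for each library. It names no unit, and the values were read as FPKM computed by the authors, scaled by transcript length and depth. CASAVA 1.8.2 and the mm10 build are listed, without a role, by the submitters' processing notes; which tool and annotation gave the values is not given in the sources used here. Per the labels' protocols, libraries were stranded, from rRNA-depleted total RNA.

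Depth was estimated from the most frequent low value times transcript length (GENCODE vM21), since the values are not counts, so it is approximate. The values are relative within a library: a few very abundant transcripts, such as Alb, shift all others.

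Genes with a mean of at least 0.5 FPKM over the 6 ZT0 libraries were tested on log2(FPKM + 1), which understates changes of low genes, with limma 3.58.1 under R 4.3.3, with the empirical Bayes prior following mean level. One fit held the 12 group means of all 36 Liver-RE and KO libraries, which share 1 spread per gene. P-values were adjusted by Benjamini-Hochberg over all genes tested, with a threshold of 0.05. The scripts were checked on simulated data. The tables were read with Python 3.11.15 and pandas 2.3.3.

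Named were all measured clock genes; the 15 highest and 15 lowest called genes with a mean of at least 1 FPKM in the higher group and no overlap; and up to 4 called members of each other list. Some are left out for length or are not reported here, and others were added after their values were seen: fat synthesis genes beyond the 4, the NADPH, carboxylesterase, citrate cycle and inhibitor groups, Hectd2, Pck1, Ntrk2, Orm1, Saa4 and Slc2a2. Genes, members and lists were chosen with earlier results of these data known. Positions and promoter windows are from RefSeq on GRCm38.p6, matched by symbol. Deviations of same-numbered Liver-RE and KO replicates from their group means correlated weakly, at most at 0.21, so the numbers were not used as pairs.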

Additional observations from a re-analysis of the deposited data

How the results depend on the processing

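No called value among the 85 named genes changed sign under these alternatives. Named genes that were not called did so 20 times in the fits without 1 ZT0 library and 3 times with quantile normalization. Arntl was among them, at 0.33 without replicate 3 of Liver-RE, against -0.26 with all libraries. Some list medians changed sign too. That of the D-box factors went to -0.19 without the same library, against 0.09, and that of the male-biased genes to -0.19 without KO replicate 3, against 0.02. Fitting the 6 ZT0 libraries alone called 64 genes higher and 22 lower (195 and 207 as reported), 9 of the 24 fat synthesis genes higher and 2 clock genes lower, Cry1 among them. This fit has 4 residual degrees of freedom per gene. Quantile normalization called 313 genes higher, and rescaling without the 20 highest genes called 5 genes in the ZT0 against other times contrast. Leaving out 1 library in turn gave 97 to 311 genes higher, 75 to 606 lower, 24 to 29 of the 30 genes named as extremes, 13 to 17 fat synthesis genes, 2 to 4 clock genes higher, 3 to 5 lower, 3 to 5 female-biased genes higher, and 0 to 206 genes in the time contrast. That contrast also called 8 genes without Liver-RE ZT16 replicate 1. A left-out library leaves 2 in its group, which are assumed to vary like the other groups. The cause of these shifts was not tested. With the replicate number as a replicate block, 210 genes were higher and 245 lower, and no gene passed in the time contrast. Same-numbered libraries correlated at -0.02, -0.07 and 0.21 in their deviations from the group means. The value of replicate 3, 0.21, was the highest of all pairs, followed by 0.195 for Liver-RE replicate 2 with KO replicate 1. Whether replicate 3 of both groups shares more than its number was not tested. WT added to the fit, a pseudocount of 0.1, no filter, a filter over all 36 libraries and robust empirical Bayes gave 189 to 212 genes higher and 179 to 302 lower. The low FPKM of genes such as Nr1d1 in KO limits the precision of their fold changes.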

Other observations

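Carboxylesterases, which cleave esters of lipids and drugs, were read as a family after several had appeared among the called genes. Of 20 family members 12 were tested, 11 had a positive Liver-RE minus KO difference at ZT0, and 6 were called higher and none lower, beside 1.66% of all genes tested called higher. The median was 0.78, against -0.10 over all genes tested. Ces1e had 50.4, 49.7 and 52.0 FPKM in Liver-RE livers, against 16.3, 24.4 and 19.6 FPKM in KO livers and 45.6, 38.5 and 39.6 FPKM in WT livers (log2 difference 1.31 ± 0.23 SE, adjusted p = 0.000911 in limma). Ces2c had 11.3, 11.1 and 7.49 FPKM in Liver-RE livers, against 0.821, 1.87 and 1.47 FPKM in KO livers (2.21, adjusted p = 0.00223). Ces1c (0.03) and Ces2a (0.03) were close in both groups. These genes are alike in sequence, and the sources used here do not give how shared reads were assigned. Because the family was chosen after its values were seen, its count is a description.

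Plasma protease inhibitors showed the opposite direction, also chosen after the values were seen. Of 8 tested inter-alpha inhibitor and macroglobulin genes, 5 were called lower and none higher, beside 1.76% of all genes tested called lower. Mug2 had 65.0, 79.4 and 87.1 FPKM in Liver-RE livers, against 221.8, 230.5 and 167.7 FPKM in KO livers and 143.0, 129.5 and 121.9 FPKM in WT livers (-1.41, adjusted p = 0.00583). Itih1, Itih2 and Mug1 differed by -0.61, -0.73 and -1.08, while Itih4 and Ambp, at -0.01 and 0.18, did not pass.

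Pyruvate dehydrogenase and citrate cycle genes numbered 21, and 4 were called higher, beside 1.66% of all genes tested: Dlat (0.86), Cs (0.65), Suclg2 (0.48) and Mdh2 (0.47). Without replicate 1 or 2 of Liver-RE, Dlat (adjusted p = 0.0887 and 0.0722) and Cs (adjusted p = 0.336 and 0.166) lost their calls, and Cs also without KO replicate 1 or 2 (adjusted p = 0.118 and 0.0715). Cs, citrate synthase, had 82.4, 67.9 and 46.8 FPKM in Liver-RE livers, against 32.2, 44.5 and 46.4 FPKM in KO livers. Its ZT0 excess over the other times was 1.00 with all libraries. It was 1.22 ± 0.20 without replicate 3 of Liver-RE (adjusted p = 0.00161), which was the lowest of its group.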
